A study of Arabidopsis thaliana with 18 samples.

Results

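The regions described here are the ChIP-seq peaks of H3K27me3 and H3K4me3 around the 5 centromeres of Arabidopsis thaliana. They are all peaks of the deposited peak tables that lie wholly in chr1:12500000-17000000, chr2:1000000-6500000, chr3:11500000-16000000, chr4:1600000-5500000 or chr5:10000000-14500000, in TAIR10 coordinates. The stretches chr2:3200000-3600000 and chr3:14190000-14210000 were left out of the windows. This rule uses position only, and it kept 1391 of 26260 peaks: 712 of 10228 for H3K27me3 and 679 of 16032 for H3K4me3. The peaks of the chromosome arms, 9379 and 15200 of them, served for comparison. Another 2 H3K27me3 peaks and 1 H3K4me3 peak crossed the edge of a window and belong to neither set.

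The study mapped both marks and histone H3 in wild-type plants and in the chr4 mutant, whose gene is also called PKR1 and encodes a CHD-type chromatin remodeller. Plants of both genotypes were raised for 5 weeks at 21 °C with 8 h of light and 16 h of dark, and tissue enriched for the shoot apical meristem was taken. The labels name no allele and no other agent. There were 18 samples, 3 for each of the 6 combinations of genotype and antibody, and the H3 libraries were not analysed here. The deposited tables hold 1 value per peak for a pool called control and 1 for a pool called treat, and each pool joins 3 replicates of 1 genotype, per the table names. Neither name is tied to a genotype in the headers, so every difference is given as treat against control with no genotype attached. With 1 pool a genotype there is no replicate error, no test between genotypes was possible, and the depth of the libraries is unknown.

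H3K27me3 is laid down by Polycomb repressive complex 2 and marks genes that are kept silent, such as developmental regulators outside the organ in which they act. H3K4me3 sits at the start of transcribed genes. The chromatin next to Arabidopsis centromeres is rich in transposons, is held silent mainly by DNA methylation and H3K9me2, and contains few active genes. Genes embedded in it can nevertheless carry either of the marks mapped here.

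Peaks of both marks were sparse in the windows. H3K27me3 had 31.7 peaks per Mb there and 97.5 per Mb in the arms, a 3.08-fold difference. H3K4me3 had 30.2 against 157.9 per Mb, a 5.23-fold difference. H3K27me3 peaks covered 4.27% of the windows and 17.5% of the arms, and H3K4me3 peaks covered 2.72% and 16.0%. Every chromosome had fewer peaks per Mb in its window than in its arms, for both marks. Within the windows H3K27me3 ranged from 24.4 peaks per Mb on chromosome 4 to 39.8 on chromosome 2, and H3K4me3 from 18.1 on chromosome 3 to 41.8 on chromosome 2. Chromosomes 3 and 4 ordered the marks in opposite ways: chromosome 3 had 29.0 H3K27me3 and 18.1 H3K4me3 peaks per Mb, and chromosome 4 had 24.4 and 33.8.

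**Figure D1:**
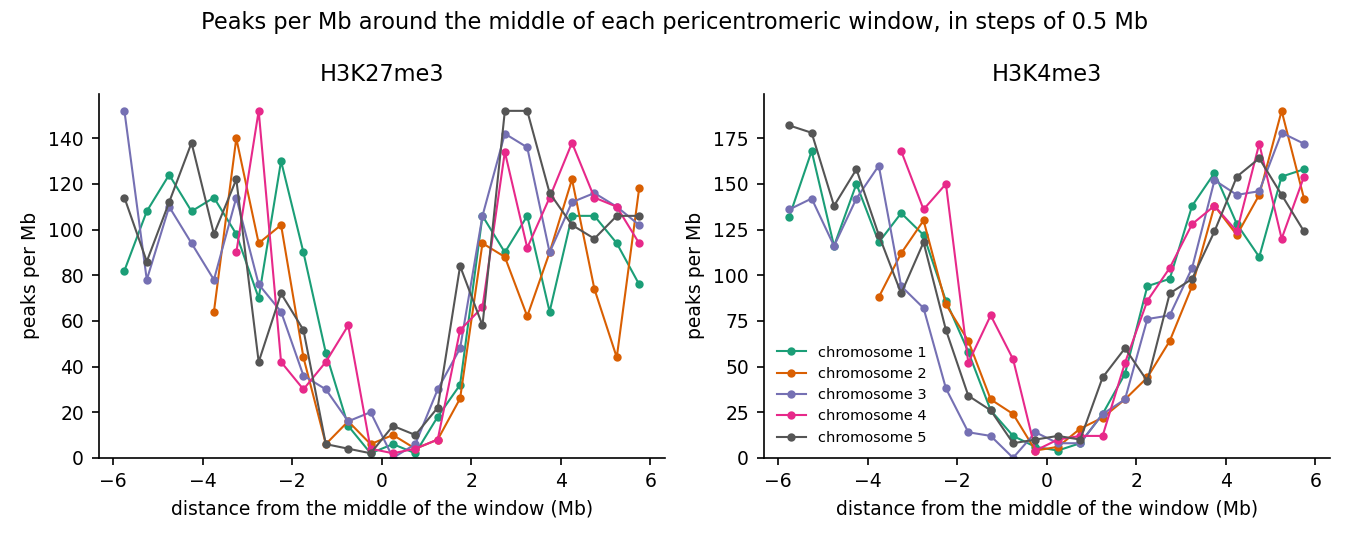
Peaks per Mb in steps of 0.5 Mb (y axis) against distance from the middle of each window (x axis, Mb), 1 line per chromosome, with the left-out stretches of chromosomes 2 and 3 removed from the counts but not from the step length. Both marks drop toward the middle of every window, over a span of a few Mb, from arm densities of 97.5 (H3K27me3) and 157.9 (H3K4me3) peaks per Mb.

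The windows also hold fewer protein-coding genes, so peaks were counted per gene as well. A gene was said to carry a peak when at least 150 bp of its body lay under it. The windows held 1634 protein-coding genes, 72.7 per Mb against 267.0 in the arms, and 3283 pseudogenes, a class that includes transposon genes in this annotation, 146.0 per Mb against 15.6. H3K27me3 covered 317 of the 1634 protein-coding genes, 19.4% (95% Wilson interval 17.6 to 21.4), against 25.04% (24.5 to 25.6) in the arms. H3K4me3 covered 551 of them, 33.7% (31.5 to 36.0), against 60.2% (59.6 to 60.8). Per gene the gap was larger for H3K4me3 than for H3K27me3, and 49.0% of protein-coding genes in the windows carried neither mark against 18.2% in the arms. The intervals cover counting error only.

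Pseudogenes set the windows apart more sharply than protein-coding genes. H3K27me3 lay on 83 of 3283 window pseudogenes, 2.53%, and on 23.2% of arm pseudogenes. H3K4me3 lay on 45, 1.37%, against 8.95%. Reads of repeated copies may be lost or shared in mapping, so a missing peak need not mean a missing mark. Non-coding RNA genes differed less: 14.0% of 478 in the windows carried H3K27me3 against 17.0% in the arms, with overlapping intervals of 11.2 to 17.4 and 16.0 to 18.1, and 11.1% against 18.8% carried H3K4me3.

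**Figure D2:**
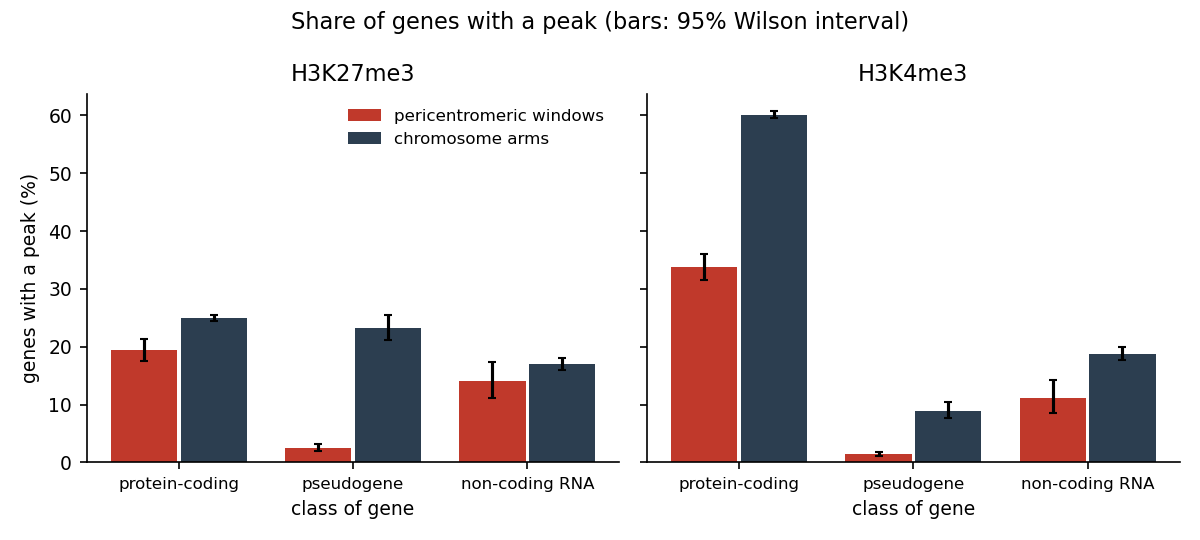
Share of genes with a peak (y axis, %) by class of gene, for H3K27me3 (left) and H3K4me3 (right), in the windows and in the arms, with 95% Wilson intervals. The shares are lower in the windows in each of the 6 comparisons, from 19.4% against 25.04% for H3K27me3 on protein-coding genes to 1.37% against 8.95% for H3K4me3 on pseudogenes, and the intervals overlap for H3K27me3 on non-coding RNA genes.

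The peaks themselves were also placed differently. Of the H3K27me3 peaks in the windows 55.3% touched a protein-coding gene, 11.1% a pseudogene and no protein-coding gene, and 29.8% no gene at all, where the arms had 68.5%, 2.27% and 26.2%. Of the H3K4me3 peaks 84.4% touched a protein-coding gene against 97.6%, 6.33% a pseudogene against 0.730%, and 5.15% no gene against 0.480%. Peaks of the windows were somewhat shorter. The median length was 790 bp for H3K27me3, against 1070 bp in the arms, and 900 bp for H3K4me3, against 960 bp.

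The level of a peak is given as its total signal, a score from the authors' tables with no stated unit. For H3K27me3 the median total signal of window peaks was 9246 in control and 10722 in treat, and that of arm peaks 13241 and 11892. Over all lengths, the pools were thus ordered one way in the windows and the other way in the arms. This did not hold for long peaks. Over 2000 bp the medians were 27916 in control and 26251 in treat in the windows, and 33943 and 29658 in the arms. For H3K4me3 the medians were 23233 and 22122 in the windows and 24557 and 23385 in the arms, lower in the treat pool in both regions.

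Peak by peak, the H3K27me3 ratios of the windows lay above those of the arms. The deposited log2 ratio, treat over control, had a median of 0.15 with quartiles of -0.24 and 0.99. In the arms it was -0.16 with quartiles of -0.48 and 0.29, and over all 10194 nuclear peaks it was -0.14. Treat exceeded control at 428 of 712 window peaks, 60.1%, and at 36.9% of arm peaks. Window medians on chromosomes 1 to 5 were 0.11, 0.12, 0.14, 0.33 and 0.22, and arm medians lay between -0.18 and -0.15. The control pool was listed with a width of 0 at 27.4% of window peaks and 16.6% of arm peaks. These ratios are thus in part fixed by which pool gave the peak. Over peaks of more than 500 bp the window median was -0.0022, and it lay 0.20 above that of the arms. For H3K4me3 the median was -0.08 in the windows and -0.08 in the arms, 0.0022 apart, and the window medians of single chromosomes lay between -0.10 and -0.07.

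A call required a deposited false discovery rate (FDR) for total signal under 0.05 together with a 1.5-fold or larger difference between the pools. Of the 712 H3K27me3 peaks 68 were called higher in treat, 9.55%, where 4.47% of all nuclear peaks were. Another 23 were called lower, 3.23%, where 3.91% of all nuclear peaks were. The arms had 3.89% higher and 3.99% lower, so calls in both directions were about equal there, whereas higher calls prevailed in the windows. This balance did not hold for stronger or longer window peaks: 10 were called higher and 11 lower without peaks of low mean signal, and 13 and 14 among peaks over 500 bp. Of the 679 H3K4me3 peaks 18 were called higher, 2.65%, beside 2.44% of all nuclear peaks and 2.36% in the arms, and 30 lower, 4.42%, beside 3.52% and 3.49%. Over all lengths, calls of H3K27me3 were more often higher than lower on every chromosome, 13 to 5, 17 to 7, 18 to 5, 7 to 2 and 13 to 4. The chromosomes share the same 2 pools, so these counts are no independent support. For H3K4me3 chromosome 4 held 9 of the 30 lower calls and 1 of the 18 higher calls. How the authors computed the FDR is not given in the sources used here, and at a deposited FDR under 0.001 no window peak of either mark was called.

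**Figure D3:**
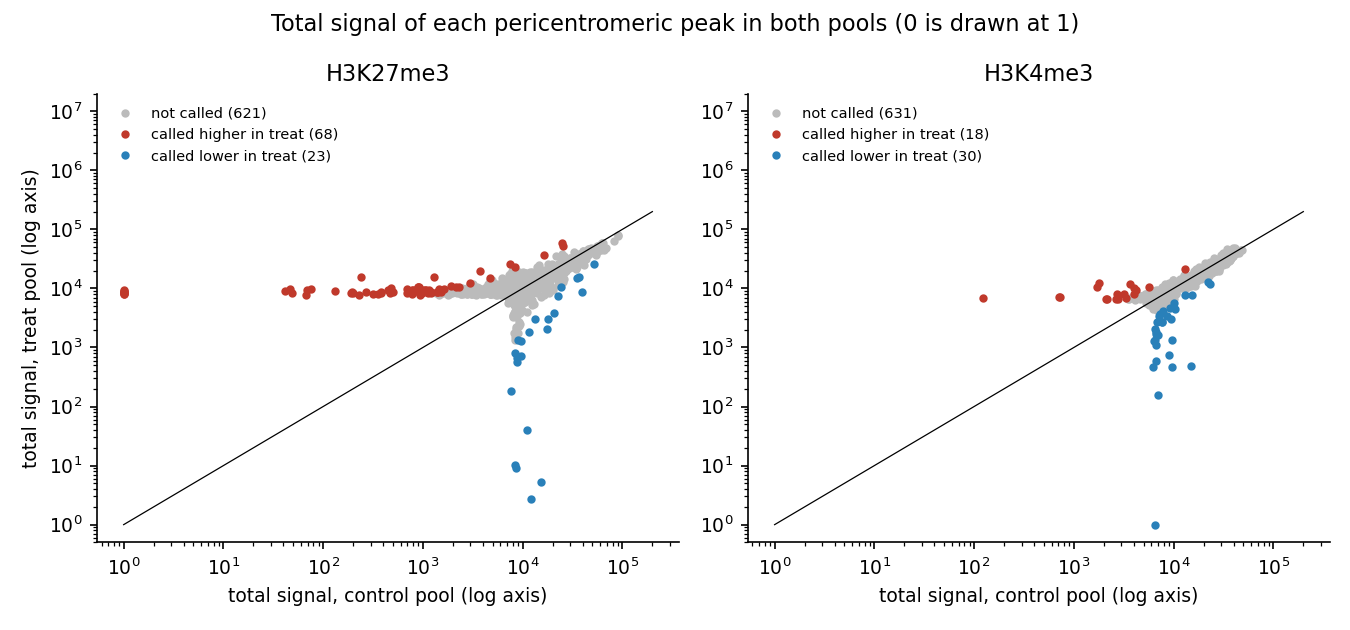
Total signal of each of the 712 H3K27me3 (left) and 679 H3K4me3 (right) window peaks in the control pool (x axis) and the treat pool (y axis), both on log axes without a stated unit, with a signal of 0 drawn at 1 and the line of equality. The 68 H3K27me3 peaks called higher form a flat band, with a treat median of 9066 and control values down to 0, and peaks strong in both pools lie close to the line.

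Most of the called peaks were weak and short. Among the 68 called higher the typical length was 135 bp (median), with a median total signal of 813 in control and 9066 in treat, below the treat median of 10722 over all window peaks. In 7 of them the control pool was listed at 0. The 23 called lower were longer, with a median of 740 bp, and went from a median of 12118 to 1354. The tables also give a width per pool, which was 0 in the control pool at 195 of 712 H3K27me3 window peaks, 27.4% against 16.6% in the arms. It was 0 in the treat pool at 47, 6.60% against 11.2%. A width of 0 came with 63 of the 68 higher calls (control) and 14 of the 23 lower calls (treat). Which step of the peak caller sets a width to 0 is not given in the sources used here.

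Peak length separated the ratios further. At up to 200 bp the 173 H3K27me3 window peaks had a median log2 ratio of 1.28 and the 1823 arm peaks 0.63, and 26.6% against 13.3% were called higher. From 210 to 500 bp the medians were 0.64 and 0.09, and from 510 to 1000 bp 0.24 and -0.22. The windows lay above the arms in every class over 200 bp. From 210 bp on, window medians fell with each longer class, and arm medians fell only up to the class of 510 to 1000 bp. The control width was 0 at 131 of the 173 shortest window peaks, 75.7% against 58.6% in the arms, and the treat width at 13.3% against 33.5%. Most of the shortest window peaks thus had a width in the treat pool alone, so their ratio is in part fixed by which pool gave the peak, and nothing is read from the medians of this class. From 210 to 500 bp the control width was 0 at 47% of window peaks and 33.1% of arm peaks, so the same limit holds there in part. Over 1000 and up to 2000 bp the medians were -0.00076 and -0.21, and over 2000 bp they were -0.08 for 170 window peaks and -0.19 for 2820 arm peaks. Arm peaks reweighted to the lengths of the window peaks had a median of -0.15 and 4.62% higher calls, beside -0.16 and 3.89% for the arms as they are. For H3K4me3 the medians lay between -0.11 and -0.05 in all classes over 200 bp, in windows and arms alike, and were 0.22 against 0.04 for the 44 window and 577 arm peaks up to 200 bp.

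**Figure D4:**
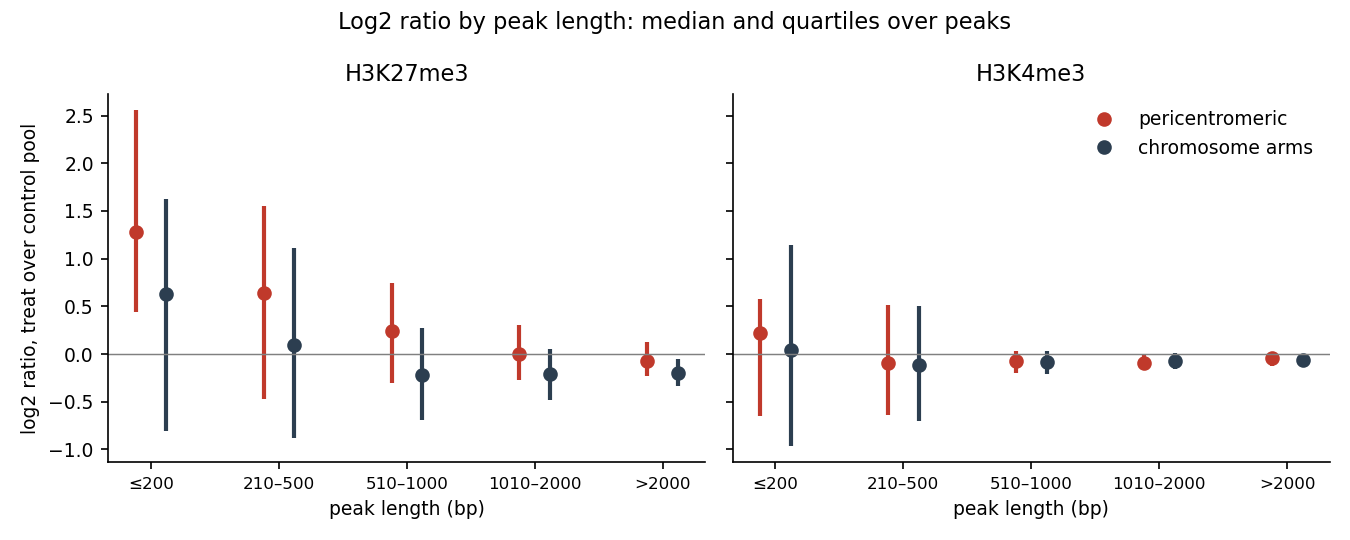
Log2 ratio of treat over control (y axis) by peak length (x axis, bp) for window peaks and arm peaks of H3K27me3 (left) and H3K4me3 (right); points are medians and bars the quartiles over peaks. The H3K27me3 medians of the windows lie above those of the arms in every class over 200 bp, from 0.64 against 0.09 at 210 to 500 bp to -0.08 against -0.19 over 2000 bp. In the shortest class 75.7% of window peaks and 58.6% of arm peaks had a control width of 0, so the ratio there is in part fixed by which pool gave the peak. At 210 to 500 bp these shares were 47% and 33.1%.

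The placement of peaks moved with the ratio as well. The 212 H3K27me3 window peaks that touched no gene had a median length of 235 bp and a median log2 ratio of 0.61, and 14.2% were called higher. The arm peaks on no gene had a median of -0.14 and 5.17% higher calls. Of the 212 window peaks 102 were up to 200 bp long. The control width was 0 at 45.3% of the 212 and at 29.2% of the arm peaks on no gene. The ratios of both sets are thus in part fixed by which pool gave the peak. Peaks touching a protein-coding gene had medians of 0.07 in the windows and -0.17 in the arms, and those on pseudogenes 0.11 and -0.07. Counted per gene, with at least 150 bp of the body under the peak, the 317 marked protein-coding genes of the windows had a median of -0.06, the opposite sign. When peaks were restricted to more than 500 bp, the median of window peaks on no gene was 0.08 and on protein-coding genes -0.05, against -0.27 and -0.19 in the arms.

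H3K27me3 ratios also differed across the edge of the windows, without an even gradient. Within the first 0.5 Mb outside, the H3K27me3 median was -0.04, from 0.5 to 1 Mb it was 0.02, from 1 to 2 Mb -0.10, from 2 to 4 Mb -0.15 and beyond 4 Mb -0.20. Inside it was 0.21 in the outer 0.5 Mb, 0.04 from 0.5 to 1 Mb, 0.27 from 1 to 1.5 Mb and 0.23 deeper than that, where 63 peaks lay. The share called higher was 7.96%, 9.42%, 12.3% and 15.9% in these 4 inner steps, going inward, and the share called lower was 1.59%, 4.19%, 3.70% and 9.52%, so of these 4 steps the deepest had the highest share in both directions. Peaks up to 200 bp, whose ratio is in part fixed by which pool gave the peak, made up 21.5%, 21.5%, 33.3% and 38.1% of these steps. Outside, the step from 0.5 to 1 Mb had 8.74% higher calls, above the 7.96% just inside the edge. Peaks over 500 bp had another profile, with a median of 0.05 in the outer 0.5 Mb of the windows, -0.06 and -0.07 in the next steps and -0.16 for the 34 deepest peaks, against -0.23 beyond 4 Mb outside. H3K4me3 medians lay between -0.10 and -0.06 in all 9 steps.

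**Figure D5:**
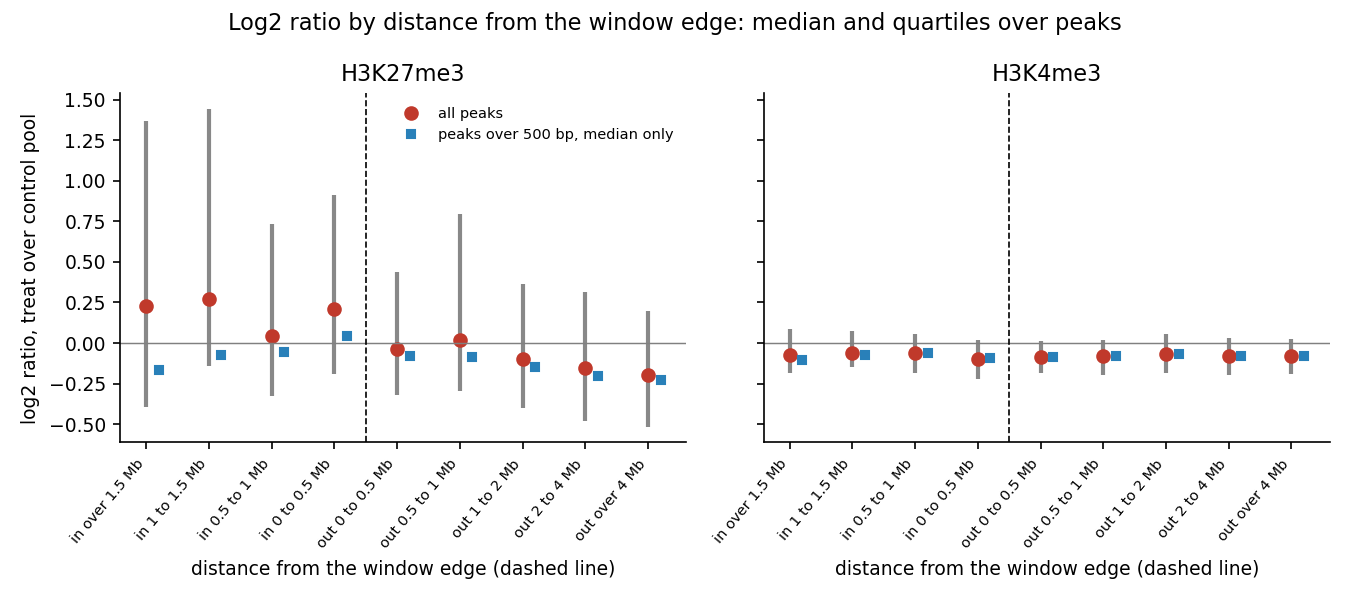
Log2 ratio of treat over control (y axis) by distance from the window edge (x axis; left of the dashed line is inside the window), for H3K27me3 (left) and H3K4me3 (right); circles are medians and bars quartiles over all peaks, and squares are medians of peaks over 500 bp. H3K27me3 medians over all peaks lie between 0.04 and 0.27 inside the windows and between -0.20 and 0.02 outside. H3K4me3 medians stay between -0.10 and -0.06.

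For H3K27me3, the organelle genomes and the stretches left out also had ratios above 0. The median log2 ratio was 1.62 over 32 mitochondrial and 1.53 over 2 chloroplast H3K27me3 peaks, and 1.25 over the 90 and 1.24 over the 11 peaks of the stretches left out on chromosomes 2 and 3. For H3K4me3 the medians of peaks in these 4 regions were 0.23, 0.37, 0.27 and 0.87, above 0 where the median of the windows was -0.08. The part of this difference in the H3K27me3 ratios of the windows was not tested. With 1 pool a genotype, a difference between the pooled libraries and 1 between the genotypes cannot be told apart.

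Among the strong H3K27me3 peaks of the windows the pools differed little. The named genes follow a rule given with the processing. The peak with the largest signal covered MCT1, a gene with a Mei2-type RNA recognition motif by its name (chr1:14169830-14173190), with 90232 in control and 79972 in treat. The next lay over AT4G05470, AT4G05475 and AT4G05490 (chr4:2762820-2772480), with 90107 and 77395. The peak over SAP (STERILE APETALA), a regulator of flower development, and its neighbour AT5G35760 had 81937 and 64669 (chr5:13933310-13942700). AT5G28160, AT1G43140 and AT3G30730 completed the 6 strongest, and treat was lower than control by 1.04-fold to 1.27-fold in all 6. None of them was called.

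The longest H3K27me3 domains were also not called. A domain of 13180 bp over AT2G05400, AT2G05410, AT2G05420 and AT2G05430 (chr2:1975100-1988280) had 25852 in control and 35372 in treat, a 1.37-fold difference. A domain of 11500 bp over the MADS-box gene AGL79 had 25699 and 26044, and 1 of 11350 bp over AT1G44180 had 53762 and 48109. A single peak value was deposited for such a domain, so genes under it share that value.

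On protein-coding genes of the windows H3K27me3 was called higher for 9 and lower for 7 of 317, 2.84% and 2.21%, beside 1.17% and 2.95% over all marked protein-coding genes of the nucleus. AT2G13550 and AT2G13555, both among the higher genes, lie under 1 peak. The largest higher call with at least the median signal was on AT2G03550 (chr2:1076870-1077840), from 1285 in control to 15685 in treat, 12.2-fold. AT2G13550 followed with 3709 and 19959, 5.38-fold, AT1G36150 with 4738 and 15252, 3.22-fold, and AT3G29800 with 8463 and 22906, 2.71-fold. In the authors' deposited table the FDR of these 4 peaks was 0.0040, 0.0048, 0.043 and 0.024. By peak height, which the tables give with an FDR of its own, AT2G03550 and AT2G13550 kept a call and AT1G36150 and AT3G29800 did not.

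The lower calls included enzymes and an RNA-binding protein. CYSD2, a cysteine synthase, went from 18036 in control to 3077 in treat, 5.86-fold (chr5:10026310-10030050). The neighbouring AT5G28010 had a peak of its own, with 13268 and 3006. AT5G33330 (chr5:12592510-12593620) had 22736 and 7493, 3.03-fold, and was also the H3K27me3 peak nearest to the middle of its window. PUM10, of the Pumilio family of RNA-binding proteins, had 35352 and 14756, 2.40-fold (chr1:13252440-13255890), and PMAT2, a malonyltransferase for phenolic glucosides, had 24460 and 10497, 2.33-fold. The deposited FDR was 0.0049 for CYSD2, 0.012 for AT5G33330, 0.0077 for PUM10 and 0.042 for PMAT2 in the authors' deposited table. By peak height CYSD2 and PUM10 kept the call, and AT5G33330 and PMAT2 did not.

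For H3K4me3 the strongest window peaks on protein-coding genes were nearly equal in both pools. ATPC1, the gamma subunit of the chloroplast ATP synthase, had 48575 in control and 44854 in treat (chr4:2350150-2352210). AT2G05920 had 43975 and 41435, EMB2369 42186 and 43023, AT4G07825 44825 and 39089, AT5G28040 40238 and 42892, and AT2G05790 43095 and 39472. These 6 differed by at most 1.15-fold. The longest peaks were on AT4G03940, with 3020 bp, on the nitrate reductase gene NIA2, with 2830 bp and 26210 against 25519, on the polyubiquitin gene UBQ10, with 2570 bp and 38442 against 37091, and on LHCB2.1, a light-harvesting chlorophyll protein, with 2310 bp and 24594 against 26316.

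H3K4me3 was called higher on 8 and lower on 10 of 551 protein-coding genes, 1.45% and 1.81%, beside 1.19% and 2.35% over all marked protein-coding genes of the nucleus. No called peak on a gene had the median signal in its higher pool, so the naming rule picked none, and the genes given next were chosen after their values were seen. GRP-3, which encodes a glycine-rich protein, had 714 in control and 7054 in treat, LURP1, a gene of the defence response to oomycetes, 2739 and 8204, and ERD5, the proline dehydrogenase, 5615 and 10420. Next to the ERD5 peak, another H3K4me3 peak (chr3:12449550-12450120) was lower in treat, with 8439 and 6464, and was not called. ORTHL, a relative of the methylcytosine-binding VIM proteins, was called lower in treat, with 9445 and 3030, as was GRF11, a 14-3-3 protein, with 7364 and 3688. AT4G05590 had the widest gap among the lower ones, 6742 and 589, 11.5-fold. Peaks of these genes were 240 to 900 bp long, and 9 of the 18 kept a call by peak height.

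A few window stretches carried both marks. Of the H3K27me3 peaks 59 overlapped an H3K4me3 peak by at least 1 bp, 8.29% (6.48 to 10.5), against 10.8% (10.2 to 11.4) in the arms. Of the H3K4me3 peaks 61 overlapped an H3K27me3 peak, 8.98% (7.06 to 11.4), against 7.02% (6.62 to 7.44). These made 62 overlapping pairs, of which 38 were called in neither mark. In 3 pairs the marks were called in opposite directions, and in 1 pair both were called higher. The calls of overlapping pairs in the arms were not counted, so nothing is read from these numbers.

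The 3 opposite pairs were described after their values were seen. One lay at a site with no gene on chromosome 1. H3K27me3 there had 11068 in control and 40.6 in treat (chr1:13603200-13603920), and the adjacent H3K27me3 peak had 15398 and 5.33 (chr1:13604020-13604960). The overlapping H3K4me3 peak had 724 in control and 7148 in treat (chr1:13603240-13603850). At chr2:1930800-1932160 H3K27me3 had 36880 and 15468, and H3K4me3 at chr2:1930900-1931330 had 3218 and 8155. AT2G13550 was the reverse case, with H3K27me3 5.38-fold higher in treat and H3K4me3 at 7634 in control and 2704 in treat (chr2:5648750-5649130).

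Both marks lay on 34 protein-coding genes of the windows, 2.08% against 3.37% in the arms. The 6 with the largest summed differences were AT2G03550, AT2G13550, GRP-3, AT1G35210, AT3G32940 and AT4G06744. AT2G03550, with its higher H3K27me3, had H3K4me3 of 28245 in control and 21368 in treat, which was not called. On GRP-3 H3K27me3 had 27285 and 19685, not called, beside H3K4me3 that was called 9.87-fold higher. AT4G06744 had H3K27me3 of 16778 and 10080, not called, and H3K4me3 of 3656 and 12015, called. AT1G35210 was lower in both, with H3K27me3 of 24209 and 17414, not called, and H3K4me3 of 6466 and 1318, called. AT3G32940 had H3K27me3 of 11544 and 1857, called lower, and H3K4me3 of 18086 and 16678, not called.

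Several regulators of flowering and of the shoot apex lie in the windows and carried H3K27me3, and none of the H3K27me3 peaks named here was called. All 3 MADS-box genes matched by symbol or synonym had it, against 52.5% in the arms. SEP4, a floral organ identity gene, had 34748 in control and 31335 in treat. AGL44, which controls root branching in response to nitrate, had 45499 and 45889. The other was AGL79. SEP4 also had H3K4me3, with 9008 and 12132. All 3 matched homeobox genes had it too, against 54.5% in the arms. KNAT1, the KNOX gene BREVIPEDICELLUS that shapes the inflorescence stem, had 26553 and 23643. PDF2, which specifies the epidermis, had 59194 and 54043, and HDG10 had 10117 and 18834. With 3 genes in each group, no difference from the arms is read. KNAT1 had a short H3K4me3 peak, with 4372 and 7669. Several short H3K4me3 peaks lay under the H3K27me3 peak of PDF2. The longest had 6834 and 5590, and the others, higher in treat, had 4134 and 6360, and 5447.7 and 5868.5. None of these peaks was called. FTM1, a desaturase gene linked to the floral transition at the meristem, was chosen here after its values were seen. Its H3K27me3 peak had 35438 and 23185, not called. Its H3K4me3 peak had 2125 and 6699 and was called higher, but not by peak height. Another H3K4me3 peak under the same H3K27me3 peak (chr1:16578300-16578370) went the other way, with 6716 and 5681, and was not called.

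In other gene groups the shares with a mark are given beside those of the arms. Groups hold only genes matched by symbol or synonym, so members without such a name may be missing. H3K27me3 lay on 4 of 5 MYB genes, against 62.8% in the arms, and on 6 of 12 cytochrome P450 genes, against 53.4%. Among these MYB genes was TT2, the regulator of proanthocyanidins in the seed coat, with 11198 in control and 3941 in treat. Of the WRKY genes 1 of 4 carried H3K27me3, against 54.4%. H3K4me3 lay on all 3 matched ribosomal protein genes, such as RPL21C with 38886 and 37027, against 98.6% in the arms. It lay on 22 of 33 kinase and receptor-like genes, against 74.1%, and on 3 of 4 genes matched to the ubiquitin pathway, against 89.6%. PI4K GAMMA 7 was matched to both of these groups. No difference from the arms is read from so few members. The kinases with H3K4me3 included SOS2 of the salt response, with 23524 and 24537, and the cytokinin receptor gene HK2, with 30763 and 28599. Neighbouring cysteine-rich receptor-like kinases CRK36, CRK37 and CRK38 on chromosome 4 carried H3K27me3 instead, with 14701 and 14250, 15359 and 19459, and 23955 and 26083. No gene of these groups was called in either mark.

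Transporter genes had H3K27me3 on 11 of 25 members, 44.0% against 35.2% in the arms, with a median log2 ratio of 0.34, beside -0.20 for the 167 marked transporter genes of the arms. Among those of the windows, CHX15, a cation exchanger, had 8760 in control and 17712 in treat, and UMAMIT20 had 8257 and 14476. Neither was called. In the other direction lay ZIP7, a metal transporter, with 38057 and 28612. The chromatin genes were CHR5, a CHD remodeller like CHR4 itself, with H3K4me3 of 35823 and 30678, CHR38, a SNF2-type remodeller, with 3516 and 6515, ORTHL, and the histone deacetylase gene HDA7, with H3K27me3 of 19083 and 23724. ORTHL was the only gene with a call in any of the 19 groups examined.

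Of 12 defensin-like and self-incompatibility-like genes 1 carried H3K27me3, SCRL18 with 4962 in control and 14056 in treat, against 42.9% of 105 such genes in the arms. Of 11 auxin genes 3 carried H3K27me3, 27.3% against 32.8% in the arms: GH3.1, an auxin-conjugating enzyme, with 68820 and 48684, AIR3 and AT3G43120, and none carried H3K4me3, against 48.9% in the arms. The ARF12, ARF14, ARF15, ARF20, ARF21, ARF22 and ARF23 genes, related auxin response factors on chromosome 1, carried no peak of either mark. Reads of near-identical copies may be lost or shared in mapping, and how the authors treated them is not given in the sources used here.

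Near the middle of the windows the peaks were few. On chromosome 2 the nearest H3K27me3 peak to the middle lay at chr2:3668190-3669720, with 15586 in control and 16825 in treat, and the nearest H3K4me3 peak was on AT2G09990, with 25987 and 25916. On chromosome 4 these were AT4G06534, with H3K27me3 of 37376 and 29560, and AT4G06598, with H3K4me3 of 20450 and 21649. The H3K4me3 peak on chromosome 5 was on AT5G32470, with 29818 and 31331. On chromosomes 1 and 3 both marks had their innermost peak at the same short stretch with no gene, at chr1:14721030-14721120, with H3K27me3 of 3413 and 9966 and H3K4me3 of 6362 and 9021, and at chr3:13707010-13707060, with H3K27me3 of 3034 and 9181 and H3K4me3 of 4946 and 6923.

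Such short coincident peaks, at most 200 bp long in both marks, were found at 11 of the 173 short H3K27me3 window peaks, 6.36%, against 12 of 1823 in the arms, 0.658%. All 11 were higher in treat in both marks, with median log2 ratios of 1.06 for H3K27me3 and 0.38 for H3K4me3, but only 4 were called higher for H3K27me3 and 1 for H3K4me3. Among all window peaks of up to 200 bp, treat exceeded control at 82.1% of the 173 for H3K27me3 and 59.1% of the 44 for H3K4me3. The ratio of such short peaks is in part fixed by which pool gave the peak, so nothing is read from this direction. The 12 sites of the arms had a larger H3K27me3 median, 1.35. A row of 4 stood on chromosome 3, with starts 540, 410 and 540 bp apart and 60232 bp or more from the nearest protein-coding gene. The first of them, chr3:13590330-13590520, had H3K27me3 of 24792 in control and 58656 in treat and H3K4me3 of 39433 and 48813. A pair on chromosome 5 stood 510 bp apart, and there chr5:11185230-11185380 had H3K27me3 of 21649 and 35215 and H3K4me3 of 31091 and 40566. These 2 sites had H3K4me3 levels above the H3K4me3 median of the arms in control, 24557, at a length of 190 and 150 bp.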

How the data were processed

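Both marks were mapped by ChIP-seq in 3 samples of each genotype, and the deposited tables hold 1 row per peak. Per the submitters' processing notes, Bowtie and TAIR10 were used, and the peak caller, its thresholds and the normalization are not given in the sources used here. Per the file headers, the authors gave each pool a height and a total signal, both scores without a stated unit, a width in bp, a log2 ratio of treat over control and an FDR, which is listed here with the p-values. No column gives values per replicate.

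Peaks were assigned to windows by position. Arms run to the last peak end. Calls used the deposited FDR under 0.05 and 1.5-fold. Each gene was linked to the peak with the longest overlap of its body, if this reached 150 bp. Genes came from a TAIR10.1 table whose coordinates are not printed. Gene groups were matched by words in symbols and synonyms. The members, lists and naming rule were chosen with earlier results of these data known. Named peaks were, per mark and among peaks on protein-coding genes, the 6 with the largest signal, up to 6 called each way with at least the median signal in the higher pool, and the 4 longest. To these came the peak nearest to each window's middle, with or without a gene, and over both marks the 6 genes with the largest summed log2 ratios. Scripts were tested on simulated data and ran in Python 3.11.15 with pandas 2.3.3 and scipy 1.17.1. Alternatives changed thresholds, measure, filters, centring, windows and gene links. Since no replicate values were analysed, medians and counts are descriptions, and the binomial intervals of shares cover counting error only.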

Additional observations from a re-analysis of the deposited data

How the results depend on the processing

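No paired analysis was possible because the tables hold 1 pooled value per genotype, and no replicate could be left out. Of 180 alternative values 122 kept direction and size, 52 moved and 6 reversed, and the cause was not tested, apart from filters and restrictions, which keep fewer peaks by construction. The 68 higher and 23 lower H3K27me3 calls and the 18 higher and 30 lower H3K4me3 calls became 0 each at a deposited FDR under 0.001 and after a further Benjamini-Hochberg adjustment. H3K27me3 higher calls were 29 by height, 10 without peaks of low mean signal, 35 without peaks of low signal in the higher pool, 22 over 200 bp, 13 over 500 bp, 38 in windows narrowed by 0.5 Mb on each side, 28 on protein-coding genes and 30 on no gene. Lower calls were 11 without peaks of low mean signal and 14 over 500 bp, in both cases 1 more than the higher calls, and 9 on protein-coding genes and 11 on no gene. H3K4me3 higher calls were 9 by height, 1 with either signal filter, 33 with the left-out stretches kept, 6 over 500 bp, 10 on protein-coding genes and 4 on no gene, and lower calls were 2 with either filter, 14 in narrowed windows, 11 over 500 bp and 3 on no gene.

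The H3K27me3 median of 0.15 became 0.023 with the filter on mean signal, 0.069 with that on the higher pool, 0.041 over 200 bp, 0.068 on protein-coding genes, 0.61 on no gene, 0.32 with the left-out stretches and 0.29 after recentring on all nuclear peaks, and it reversed to -0.0022 over 500 bp. Its distance from the arms, 0.31, stayed positive in every alternative run and was 0.21 with the filter on mean signal, 0.20 over 500 bp, 0.75 on no gene and 0.49 with the left-out stretches. The H3K4me3 median of -0.08 was -0.057 by height and -0.058 with the left-out stretches, and turned to 0.0012 after recentring and 0.14 on no gene. Its distance from the arms, 0.0022, was -0.0041 and -0.0034 with the signal filters, -0.00091 on protein-coding genes, 0.020 with the left-out stretches and 0.20 on no gene. The H3K27me3 density ratio of 3.08 was 5.09 in narrowed windows. The share of protein-coding genes with H3K27me3, 19.4%, was 13.7% when a peak had to cover 50% of the body and 14.9% in narrowed windows, and that with H3K4me3, 33.7%, was 6.67% at 50% of the body and 36.2% with genes widened by 500 bp. The restrictions to over 500 bp, to protein-coding genes and to no gene, and the distance from the arms, were added after seeing the data.

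Leaving out any 1 chromosome, a 2-fold limit, no fold limit and any overlap with a window moved no count of calls by over 1.5 times and reversed no median. Of the 34 calls on genes 26 held at 2-fold, 17 by height, and 12 and 17 with the 2 signal filters. Depth is unknown for the pools, and most calls were on peaks with low signal in 1 pool.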
